A study of Homo sapiens with 6 samples.

Results

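The genes described here are 30 targets of the transcription factor p53, chosen by name from a table of 58735 genes, and all 30 were found in it. They were measured by RNA sequencing in TPC1 cells, an established line from a papillary thyroid cancer, to ask which genes change when the circular RNA hsa_circ_0000839 is silenced. One group of 3 libraries came from cells given an siRNA against that circular RNA (si-circ_0000839) and the other 3 from cells given a negative-control siRNA (NC), both kept for 60 h after transfection in DMEM with serum. All 6 libraries thus come from transfected cells of 1 line, and no untransfected cells were analysed here. The labels do not say whether replicates were separate cultures, and the spread that p-values rest on may therefore be technical.

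p53 is a transcription factor that MDM2 keeps at a low level in unstressed cells. DNA damage and other stresses stabilise it, and it then binds a response element made of a pair of half-sites in or near its target genes. The targets halt the cell cycle, repair DNA, adjust metabolism and redox state, sensitise cells to death signals, and, through MDM2 and others, switch p53 off again. Many thyroid carcinomas keep this response intact.

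The libraries held 18399558 to 19334633 recovered reads, and a gene counted as tested when it averaged 1 FPKM or more over the 6 (fragments per kilobase of length per 1000000 reads). Of 10674 genes tested with limma, 14 were called higher (0.131%) and 27 lower (0.253%), together 0.384%, at a Benjamini-Hochberg adjusted p under 0.05. The thyroid factor PAX8 stood at 96.3 FPKM in si-circ_0000839 and 95.8 in NC and FOXE1 at 11.6 and 10.9, whereas NKX2-1 and TSHR had no reads and TG was at 0.129 and 0.143 FPKM. Of the leukocyte markers PTPRC and CD3E had no reads, and CD68 and LYZ at most 2 reads in a library. Endothelial markers stayed under 0.12 FPKM in every library. Among fibroblast markers COL1A2, DCN and PDGFRA stayed under 0.01 FPKM in every library, COL1A1 was at 0.565 and 0.370, and LUM at 15.8 and 22.5. Reads of the circular RNA itself were not analysed here, so its depletion was not checked.

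None of the 30 targets passed the threshold after si-circ_0000839. Of the 30 members 28 were tested, 0 were called higher and 0 lower, and the lowest adjusted p was 0.202, for AEN (limma). The 2 members that did not reach 1 FPKM were TIGAR and TNFRSF10C. At an unadjusted p under 0.05 there were 5 members, 3 above NC (BTG2, AEN and TNFRSF10B) and 2 below it (APAF1 and DDB2), which is 17.9% of those tested against 12.6% of all tested genes. The test on recovered reads with limma's voom, which called 0.787% of all genes, also called 0 members and gave 7 at an unadjusted p under 0.05, which is 25% of them against 13.8% of all tested genes. The median log2 change of the tested members was -0.0034, beside 0.0057 for all tested genes, with 13 members above 0 and 15 below (15 and 13 after rescaling to TPM). In RNA from whole cultures a gene used by fewer cells and a gene with less RNA in each cell cannot be told apart.

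The data do bound how far the targets could have moved between these samples. All log2 changes given are differences of log2(FPKM + 1), so they come out too small for genes at low levels. On this scale the 95% interval of no tested member reached beyond 0.42 in either direction, a 1.34-fold difference in FPKM + 1. With voom, whose log2 scale has no pseudocount of 1 FPKM, the interval reaching farthest from 0 was that of SPATA18, at 0.60, or 1.52-fold. Only BTG2 and AEN lay outside the range from -0.24 to 0.21 that held the changes between the 5th and 95th percentile of all tested genes.

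In 6 of the 28 tested members the groups did not overlap, which is 21.4% beside 18.1% of all tested genes. All 3 si-circ_0000839 libraries lay above all 3 NC libraries for AEN, BTG2, TNFRSF10B and SPATA18 (10.6% of all genes did so), and below them for DDB2 and APAF1 (7.55% of all genes). These shares are near those of the whole table, so the separation is not a result about p53 targets. The 6 genes belong to 5 different roles, and AEN and DDB2, both with a close match to the p53 site in their promoters, lay on opposite sides of NC.

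**Figure D1:**
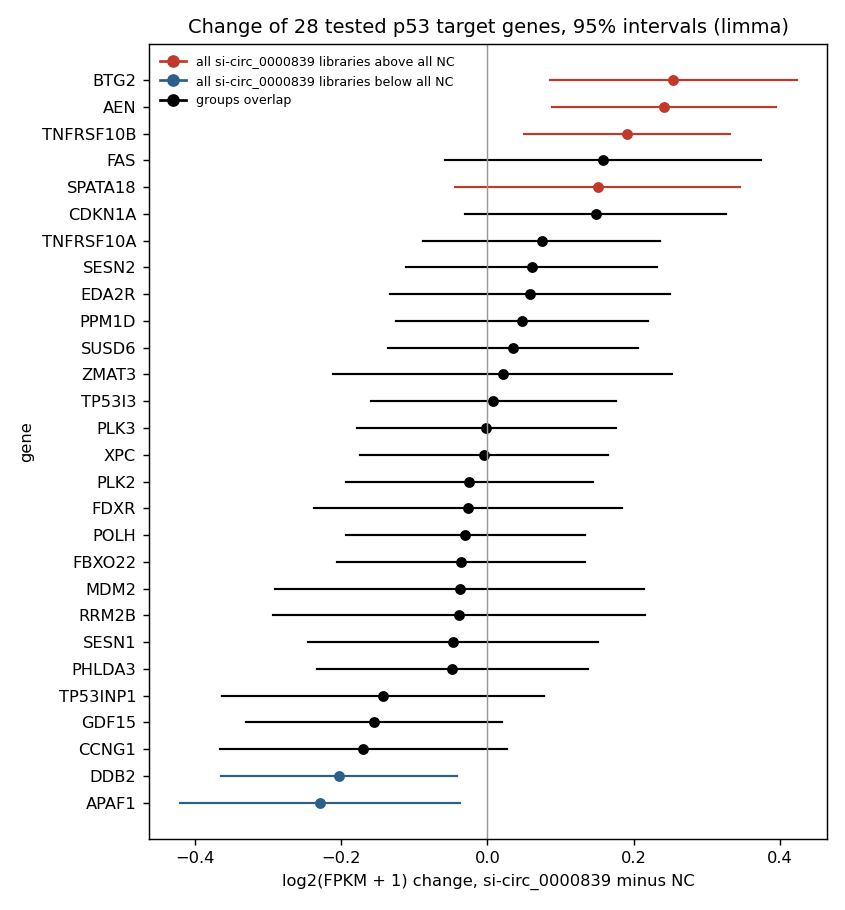
Log2(FPKM + 1) change of each of the 28 tested members (y axis), si-circ_0000839 minus NC (x axis), as points with 95% intervals from limma; colours mark the members whose groups do not overlap. The points run from -0.23 for APAF1 to 0.25 for BTG2, 23 of the 28 intervals include 0, and no interval reaches beyond 0.42.

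Close matches to the p53 response element are shown for the members whose promoters carry one, because these members include genes on both sides of NC. RefSeq promoter windows (GRCh38.p14, 250 bases before to 50 after each annotated start) matched 23 members by symbol, and none was found for FBXO22, PHLDA3, RRM2B, TNFRSF10A, TNFRSF10B, TNFRSF10C or TP53INP1. The p53 response element consensus was searched as a pair of 10-letter half-sites with 0 to 13 bases between them, with both half-site cores (a C and a G with A or T at both bases between them) intact and at most 3 mismatches over the 20 letters. The consensus reads the same on both strands, so both were covered. A match was present in at least 1 window of 5 of the 23 members (21.7%) and of 5.53% of all 27305 genes with a window. The matches are printed 5′ to 3′ with the site in capitals and up to 4 flanking bases in lower case:
AEN: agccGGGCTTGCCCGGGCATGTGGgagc
DDB2: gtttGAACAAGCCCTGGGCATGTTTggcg
FAS: tcctGGACAAGCCCTGACAAGCCAagcc
GDF15: gcacAGCCATGCCCGGGCAAGAACtc
SESN1: gtctGGACAAGTCTCCACAAGTCAgaaa

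The DDB2 site, at chr11:47214979-47214999 on the plus strand, matched all 20 letters with 1 base between its half-sites. The sites of AEN (chr15:88621306-88621325, plus strand) and FAS (chr10:88991309-88991328, plus strand) matched 18 letters, and those of GDF15 (chr19:18386186-18386205, plus strand) and SESN1 (chr6:109009018-109009037, minus strand) matched 17. In GENCODE release 29 the sites of AEN, DDB2, FAS and GDF15 lie within an exon of at least one transcript of their gene, and that of SESN1 lies in an intron. The log2 changes of these 5 genes had both signs: 0.24 and 0.16 for AEN and FAS, and -0.20, -0.15 and -0.05 for DDB2, GDF15 and SESN1. None was called, and the 95% intervals of FAS (-0.06 to 0.37), GDF15 (-0.33 to 0.02) and SESN1 (-0.25 to 0.15) included 0. A match describes these letters only and does not show binding in these cells. Sites outside the promoter windows were not searched.

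The targets covered a wide range of levels in both groups. FPKM divides by the length of all annotated exons of a gene, so levels of different genes can be set side by side only roughly. CDKN1A was the most abundant, higher than 97.5% of all tested genes. By the mean of the 6 libraries GDF15, PLK2, PHLDA3 and TNFRSF10B followed, between 69.0 and 99.4 FPKM in the group means. In si-circ_0000839 alone TNFRSF10B, at 78.9 FPKM, was above PHLDA3, at 73.1. In NC the ranges of GDF15 (96.6 to 103) and PLK2 (80.5 to 92.4) did not overlap, whereas those of PLK2 and PHLDA3 (72.8 to 80.1) came within 1 FPKM of each other. In all, 13 members averaged 10 FPKM or more and 1, CDKN1A, 100 or more. The median level of the tested members was 8.94 FPKM, beside 6.45 for all tested genes.

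**Figure D2:**
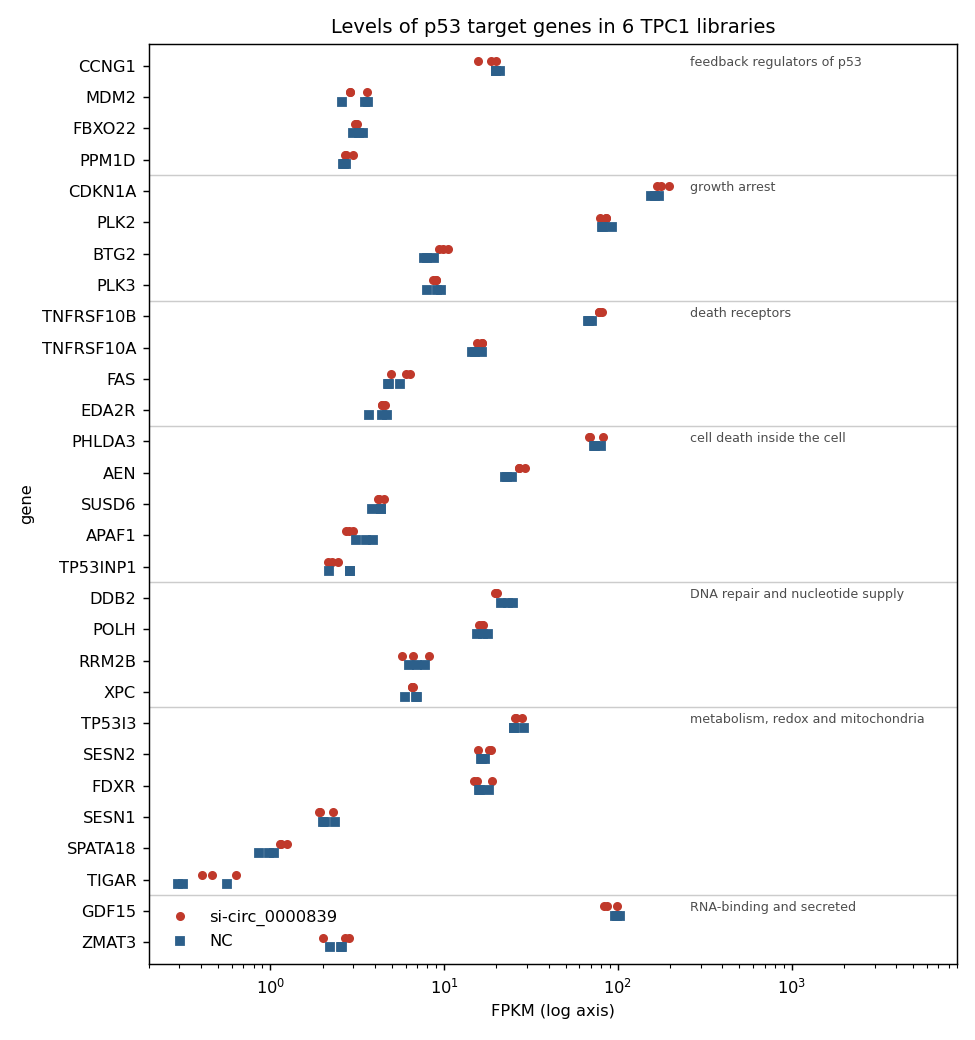
FPKM (log x axis) of 29 members in each library, grouped by role, with si-circ_0000839 libraries as circles and NC libraries as squares; TNFRSF10C, with 0 to 2 reads per library, is not drawn. Levels run from 0.295 FPKM for TIGAR to 197 for CDKN1A, a range wider than the difference between groups in any member drawn. Some members, such as POLH and FDXR, lie at nearly the same level.

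Regulators that feed back on p53 did not differ beyond their spread. MDM2, the ubiquitin ligase that targets p53 for degradation and is itself a p53 target, was at 2.88, 3.62 and 2.88 FPKM in si-circ_0000839 replicates 1 to 3 and at 3.64, 2.59 and 3.51 in NC. The groups overlapped fully, with the lowest value in NC replicate 2 (log2 change -0.04, SE 0.11, 95% interval -0.29 to 0.21, limma adjusted p = 0.926). PPM1D, the phosphatase WIP1 that removes activating phosphates from p53 and its kinases, was at 2.80 ± 0.177 FPKM (SD, n = 3) against 2.67 ± 0.0608. FBXO22, an F-box protein of a ubiquitin ligase, was at 3.11 FPKM against 3.22, with overlapping groups (log2 change -0.04, SE 0.08). CCNG1, which encodes cyclin G1, a partner of protein phosphatase 2A that acts on MDM2, stood at 15.6, 18.6 and 19.9 FPKM against 19.9 to 21.1 in NC. Its si-circ_0000839 replicate 1 was low and replicate 3 was level with NC (log2 change -0.17, adjusted p = 0.469). Without that replicate 1 the change of CCNG1 was -0.07, and with a trend on GC content and gene length removed it was -0.08.

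Of the growth arrest genes, CDKN1A, which encodes the CDK inhibitor p21, was at 197, 168 and 178 FPKM in si-circ_0000839 and at 155, 173 and 163 in NC. Its means were 181 ± 14.9 and 163 ± 9.06 FPKM, 1.11-fold apart, and NC replicate 2 lay above si-circ_0000839 replicate 2. The log2 change was 0.15 (SE 0.08, 95% interval -0.03 to 0.33, adjusted p = 0.491), and 0.08 without si-circ_0000839 replicate 1. CDKN1A (ENSG00000124762) spans chromosome 6, 36676460 to 36687339 (GRCh38, plus strand), and this value rested on 9146 to 11041 reads per library.

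BTG2, an antiproliferative protein that recruits the deadenylase complex to mRNAs, had the largest change of the tested members on the log2(FPKM + 1) scale with all 6 libraries, whereas with a pseudocount of 0.1 or with voom APAF1 was farther from 0, at -0.29 and -0.31. It was at 10.5, 9.83 and 9.36 FPKM in si-circ_0000839 and at 8.73, 7.96 and 7.70 in NC, so every si-circ_0000839 library was above every NC library. The means were 9.88 ± 0.553 and 8.13 ± 0.538 FPKM, 1.22-fold apart (log2 change 0.25, SE 0.08, adjusted p = 0.217). The polo-like kinases PLK2 and PLK3, both stress-responsive kinases, were at 83.3 ± 3.85 against 84.9 ± 6.57 FPKM and at 8.86 ± 0.203 against 8.89 ± 0.860. Their log2 changes were -0.02 and -0.0019.

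All 4 tested members grouped here as death receptors and related receptors had means above NC and log2 changes above 0, also after each rescaling. Of these, EDA2R was at -0.02 without NC replicate 2 and -0.04 without that library and si-circ_0000839 replicate 1. None of the 4 passed the threshold. TNFRSF10B, which encodes the TRAIL receptor DR5, was at 80.6, 78.0 and 78.0 FPKM in si-circ_0000839 and at 67.5, 70.8 and 68.6 in NC. The groups stood clear of each other, at 78.9 ± 1.55 and 69.0 ± 1.71 FPKM (1.14-fold, log2 change 0.19, SE 0.06, adjusted p = 0.260). TNFRSF10A, the other signalling TRAIL receptor, DR4, was at 16.2 ± 0.683 against 15.3 ± 1.01 FPKM with overlapping groups (log2 change 0.07). FAS, the receptor of FAS ligand, was at 4.92, 6.34 and 6.06 FPKM against 4.81, 4.76 and 5.59, with si-circ_0000839 replicate 1 among the NC values (log2 change 0.16, adjusted p = 0.552). Its change was 0.25 without that replicate and 0.10 without si-circ_0000839 replicate 2. EDA2R, a receptor of ectodysplasin A2, was at 4.46 ± 0.113 against 4.26 ± 0.511. The median log2 change of the 4 was 0.12. TNFRSF10C, a TRAIL decoy receptor, had 2, 2 and 0 reads in si-circ_0000839 and 0, 2 and 2 in NC. It was thus under the level of 3 reads that a count of 0 allows (0.0883 FPKM at most), and no fold is given.

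Genes that act on death inside the cell lay on both sides of NC. AEN, a nuclease that degrades DNA during apoptosis, was at 29.3, 27.1 and 26.9 FPKM in si-circ_0000839 and at 23.1, 24.4 and 22.5 in NC. The lowest si-circ_0000839 library was above the highest NC library, and the means were 27.8 ± 1.29 and 23.3 ± 1.001 FPKM (1.19-fold, log2 change 0.24, SE 0.07, 95% interval 0.09 to 0.39, adjusted p = 0.202). AEN lies on chromosome 15 from 88621296 to 88632282, plus strand.

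APAF1, the scaffold of the apoptosome that activates caspase-9, was on the other side, at 2.73, 3.01 and 2.82 FPKM against 3.57, 3.12 and 3.88 in NC. The gap between the highest si-circ_0000839 and the lowest NC library was small, and the mean was 1.24-fold lower (log2 change -0.23, SE 0.09, adjusted p = 0.311). TP53INP1, which promotes p53-dependent death and autophagy, was at 2.29 ± 0.158 against 2.64 ± 0.417 FPKM with overlapping groups. PHLDA3, which competes with AKT for membrane lipids, stood at 73.1 ± 7.49 against 75.5 ± 3.998, and the membrane protein gene SUSD6 at 4.30 ± 0.203 against 4.17 ± 0.266.

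Of the 4 DNA repair and nucleotide supply genes, DDB2 had a log2 change below 0 in every alternative. XPC, POLH and RRM2B were between -0.04 and 0 with no stable sign: XPC was at 0.02 after rescaling to TPM, RRM2B at 0.04 with the GC and length trend removed and at 0.07 without si-circ_0000839 replicate 1, and POLH at 0.02 without NC replicate 2. DDB2, the subunit that recognises ultraviolet lesions for nucleotide excision repair, was at 19.9, 20.1 and 19.6 FPKM in si-circ_0000839 and at 23.2, 24.8 and 21.2 in NC. The 3 si-circ_0000839 libraries lay within 0.5 FPKM of each other and below all of NC (1.16-fold lower, log2 change -0.20, SE 0.07, 95% interval -0.36 to -0.04, adjusted p = 0.289). DDB2 lies on chromosome 11 from 47214465 to 47239240, plus strand. XPC, which acts in the same repair pathway, was at 6.56 ± 0.0817 against 6.59 ± 0.549 FPKM, and the translesion polymerase gene POLH at 16.4 ± 0.481 against 16.8 ± 1.24. RRM2B, the p53-induced subunit of ribonucleotide reductase, varied most between si-circ_0000839 replicates, at 5.72, 8.21 and 6.60 FPKM, and was at 7.01, 6.29 and 7.73 in NC.

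In the metabolic and mitochondrial group SPATA18, which takes part in mitochondrial quality control, was the only tested member whose groups did not overlap. It was at 1.247, 1.15 and 1.13 FPKM against 0.981, 1.05 and 0.861 in NC, on 81 to 113 reads per library (1.22-fold, log2 change 0.15, SE 0.09, adjusted p = 0.527). At this low level the change of SPATA18 was 0.27 with a pseudocount of 0.1, 0.25 after rescaling to TPM and 0.29 with voom. The sestrins, which restrain mTORC1, were at 17.5 ± 1.56 against 16.7 ± 0.387 FPKM for SESN2 and at 2.04 ± 0.226 against 2.14 ± 0.179 for SESN1. FDXR, the mitochondrial ferredoxin reductase, was at 16.4 ± 2.18 against 16.6 ± 1.21, and the quinone oxidoreductase gene TP53I3 at 26.6 ± 1.45 against 26.5 ± 1.95. TIGAR, a fructose bisphosphatase that lowers glycolytic flux, was at 0.462, 0.405 and 0.636 FPKM against 0.295, 0.315 and 0.562, on 23 to 47 reads per library and with overlapping groups.

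GDF15, a secreted stress cytokine, was at 98.8, 83.1 and 86.3 FPKM in si-circ_0000839 and at 103, 98.8 and 96.6 in NC. Replicate 1 of si-circ_0000839 reached the NC range and the other 2 lay below it (log2 change -0.15, SE 0.08, adjusted p = 0.454). ZMAT3, an RNA-binding zinc finger protein that regulates splicing, was at 2.51 ± 0.438 against 2.45 ± 0.207 FPKM.

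**Figure D3:**
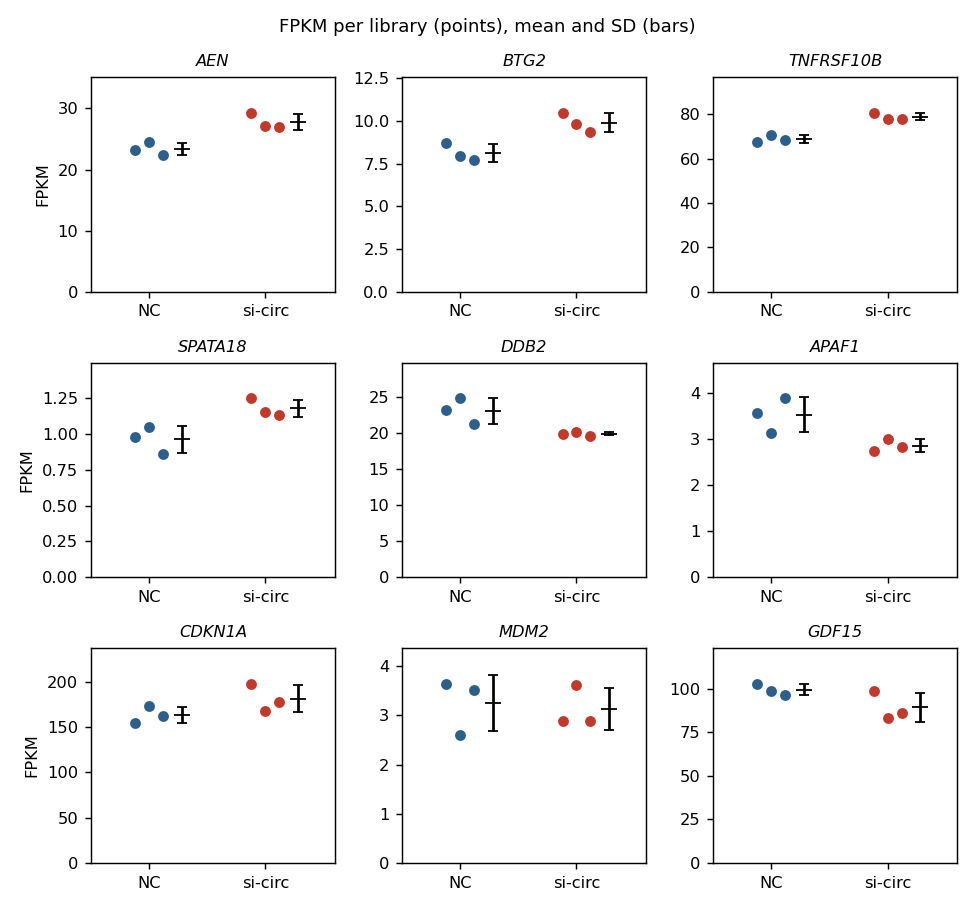
FPKM of 9 members in each NC and si-circ_0000839 library (points), with the mean and SD of the group beside them (bars, n = 3), on axes that start at 0. AEN, BTG2, TNFRSF10B and SPATA18 show every si-circ_0000839 point above NC, DDB2 and APAF1 every one below it, and CDKN1A, MDM2 and GDF15 overlap.

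Within the groups, the values of many members in 2 libraries went with the GC content of their transcripts. Of the tested members, 14 lay above the median GC content of 48.6%. Of these 14, si-circ_0000839 replicate 1 was the highest of its group in 13 and the lowest in 0. NC replicate 2 was the highest of its group in 10 of them and the lowest in 2. In the 14 members below the median, si-circ_0000839 replicate 1 was the lowest of its group in 8 and the highest in 3. There NC replicate 2 was the lowest of its group in 10 and the highest in 3. The same 2 libraries stood apart over all tested genes, with mean log2 deviations of 0.11 and 0.08 for the 20% of genes richest in GC and of -0.14 and -0.05 for the 20% poorest in it. CDKN1A (58.1% GC) and MDM2 (41.9%) show both sides of this, with CDKN1A highest and MDM2 lowest in these libraries of each group. With a trend on GC content and length removed from every library, 0 members passed in limma, and adjusted p was 0.0537 for AEN, 0.0633 for DDB2, 0.0702 for TNFRSF10B, 0.0802 for BTG2 and 0.0935 for APAF1. These were the lowest values of each over all alternatives, whose highest were 0.483, 0.628, 0.590, 0.506 and 0.643. In that fit 8 of the 28 tested members had an unadjusted p under 0.05, 5 above 0 and 3 below, beside 19.1% of all tested genes.

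Some members share exon positions with other expressed genes on the opposite strand, and the strand setting of the counting is not given in the sources used here. FAS shares 8.94% of its exon bases with ACTA2, which was at 3.70 FPKM in NC. TNFRSF10A shares 7.59% with TNFRSF10A-AS1, at 7.63 against 6.88, and XPC shares 6.63% with LSM3, at 16.6 against 18.6. For these pairs the reads of one gene cannot be told apart from those of the other where they overlap. For AEN, BTG2, DDB2 and SPATA18 no gene of the table shared exon positions.

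The wider pathway was looked at through 3 further lists, chosen for their place in it. Among 30 other p53 targets 29 were tested, and 0 were called higher and 0 lower. At an unadjusted limma p under 0.05 there were 7, 4 above NC and 3 below (24.1% of the 29, beside 12.6% of all tested genes). The median log2 change of the 29 was -0.03, with 13 above 0. The 3 with the smallest p were TNFRSF10D, PERP and BBC3. TNFRSF10D, a TRAIL decoy receptor, was at 8.48, 9.83 and 9.46 FPKM against 7.01, 7.06 and 6.83, with every si-circ_0000839 library above NC (log2 change 0.36, adjusted p = 0.0865). PERP, a desmosomal protein, was at 25.9 ± 0.711 against 31.1 ± 0.960 FPKM (adjusted p = 0.137), and BBC3, which encodes the BH3-only protein PUMA, at 12.3 ± 0.938 against 10.1 ± 0.836 (adjusted p = 0.241). With the GC and length trend removed, where 2.06% of all genes were called and 1.04% higher, 3 of the 29 were called higher. These were TNFRSF10D (limma adjusted p = 0.0222), BBC3 (0.0226) and TRIAP1 (0.0226), with log2 changes of 0.35, 0.31 and 0.30. TRIAP1, a p53-induced inhibitor of apoptosis, is named after its values were seen and was at 27.7 ± 1.89 against 23.4 ± 1.68 FPKM (adjusted p = 0.272 without that correction). TNFRSF10D also passed among genes of at least 5 FPKM (adjusted p = 0.0420), and over all alternatives the highest adjusted p was 0.310 for TNFRSF10D, 0.533 for BBC3 and 0.591 for TRIAP1.

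Of 20 other p53 regulators 18 were tested, and 0 passed in either direction. At an unadjusted limma p under 0.05 there was 1 (5.56% of the 18, beside 12.6% of all tested genes). In 5 of the 18 the groups did not overlap, each time with si-circ_0000839 above NC (27.8% of them, beside 10.6% of all tested genes). The median deviation of the list was lowest in NC replicate 2, at -0.07. The median log2 change of the 18 was 0.02. HIPK2, a kinase that phosphorylates p53, was at 8.76, 9.10 and 9.17 FPKM against 7.81, 5.97 and 7.72 in NC, where replicate 2 was low (log2 change 0.30, adjusted p = 0.237). PPP1R13L, the inhibitory ASPP protein, was at 11.2 ± 1.37 against 9.69 ± 0.121, and the ubiquitin ligase gene HUWE1 at 16.1 ± 0.754 against 14.4 ± 0.758. MDM4, the partner of MDM2, was chosen after its values were seen and not tested, at 0.580 ± 0.103 against 0.710 ± 0.117 FPKM with overlapping groups.

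The last list held 15 cell cycle genes that p53 represses indirectly, through p21 and the DREAM complex. All 15 were tested, and 0 passed in either direction. An unadjusted limma p under 0.05 was found for 3 (20% of them, beside 12.6% of all tested genes). Of the 15, 13 lay below 0, beside 5145 of all 10674 tested genes. Their median log2 change was -0.14, beside 0.0057 for all tested genes. CENPA, the centromeric histone, was at 14.6 ± 0.556 against 17.5 ± 1.05 FPKM, BIRC5, which encodes survivin, at 48.5 ± 0.596 against 55.4 ± 4.25, and CDK1 at 16.6 ± 2.30 against 19.5 ± 0.611 (adjusted p = 0.202, 0.329 and 0.349). In 6 of the 15 the groups did not overlap, each time with si-circ_0000839 below NC (40% of them, beside 7.55% of all tested genes). The median deviation of the list was lowest in si-circ_0000839 replicate 1, at -0.13, and highest in NC replicate 2, at 0.16. These 2 libraries also stood apart by GC content, but there both deviated the same way, at 0.11 and 0.08 for the GC-richest genes. The list deviated in opposite directions in them, and the cause was not tested. With the GC and length trend removed, 13 of the 15 again lay below 0 and the median was -0.12. With both libraries left out 12 lay below 0 and the median was -0.07, and without si-circ_0000839 replicate 1 alone 10 did, with a median of -0.11.

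**Figure D4:**
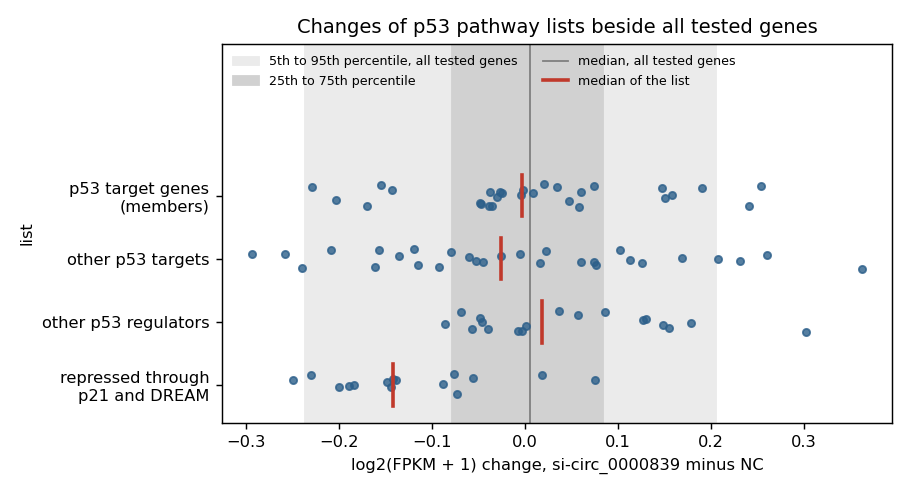
Log2(FPKM + 1) change, si-circ_0000839 minus NC (x axis), of the tested genes of each list (points, with vertical scatter for legibility) and the median of the list (red), over the percentile ranges of all 10674 tested genes (grey). The medians of the first 3 lists are -0.0034, -0.03 and 0.02, near that of all genes, and the list of genes repressed through p21 and DREAM has a median of -0.14.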

How the data were processed

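RNA of 6 TPC1 samples was sequenced. The authors deposited FPKM values for 58735 genes with coordinates and gene lengths, per the file headers; the submitters' processing notes list HISAT2 2.0.5 and featureCounts 1.5.0-p3. The strand setting and the genome build are not named by the labels or the headers; all 58735 genes have their GENCODE release 29 (GRCh38) start, end and strand. FPKM times length was a whole multiple of 1 step per library for 100% of values above 0 (tolerance 0.01), which gave the reads. Groups came from the sample titles. Genes averaging 1 FPKM or more were tested with limma 3.58.1 (R 4.3.3) on log2(FPKM + 1), trended prior variance, two-sided, adjusted over all 10674 genes; the method was tested on simulated data. GC content is that of the longest GENCODE transcript. Members and lists were chosen with earlier results of these data known. Named genes are all 30 members and the 3 genes with the smallest p of each other pathway list. Alternatives, 18 in all, covered pseudocounts, filters, scalings, prior variance, voom, the replicate number as a block, libraries left out and a GC and length trend.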

Additional observations from a re-analysis of the deposited data

How the results depend on the processing

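Across 18 alternative settings 0 of the 28 tested members passed the threshold in any fit, and all 494 values of members stayed on that side of it; the lowest adjusted p was 0.0537 (AEN, GC and length trend removed). In 16 members the sign of the change was the same in every setting, and in 12, all uncalled, it was not; leaving out 1 library turned the change or moved it by over 1.5 times in 21. Of the other pathway genes, TNFRSF10D, BBC3 and TRIAP1 passed with the GC and length trend removed, and TNFRSF10D also at a minimum of 5 FPKM. The median log2 change of the members was 0.019 after rescaling to TPM, -0.019 after quantile normalization, -0.015 after median-ratio scaling and 0.00052 to 0.024 with 1 or 2 libraries left out. Over all genes the calls were 14 higher and 27 lower; they were 1 and 3 without a filter, 111 and 109 with the GC and length trend removed, 33 higher at a minimum of 5 FPKM, 32 higher after TPM and 29 after quantile scaling, 47 higher with voom, and 15 lower with the pair si-circ_0000839 replicate 1 and NC replicate 2 left out. With 1 library left out they ranged from 5 to 18 higher and from 14 to 20 lower. The causes were not tested. Replicate numbers did not pair the samples (correlations of deviations of -0.149, -0.289 and 0.15 for numbers 1 to 3), and with the replicate block 10 genes were called higher and 25 lower, 0 of them members. The planned edgeR and DESeq2 fits were not run, since the table holds FPKM. With 3 libraries per group, changes well under the interval widths given could not be detected.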

Other observations

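Non-coding genes linked to p53 were looked up after the values of its targets had been seen. MIR34AHG, the host transcript of the p53-induced microRNA miR-34a, was at 0.439 ± 0.0784 FPKM in the si-circ_0000839 group and 0.454 ± 0.0446 in NC (SD, n = 3 each). NEAT1, the scaffold RNA of paraspeckles, was at 0.884, 0.911 and 0.847 FPKM against 1.10, 0.614 and 0.941, so that NC held both the highest and the lowest value. PVT1 was at 2.85 ± 0.246 against 2.81 ± 0.217 FPKM (limma adjusted p = 0.963), and TP53TG1 at 6.10 ± 0.609 against 7.56 ± 1.38 (adjusted p = 0.374). LINC-PINT was at 0.113 against 0.139 FPKM, on a mean of 15.7 reads per library, and PANDAR had no reads. Groups overlapped for each of MIR34AHG, NEAT1, PVT1, TP53TG1 and LINC-PINT.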
